A study of Mus musculus with 11 samples.

Results

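The type I interferon-stimulated genes studied here are a fixed list of 40 antiviral and p200 gene symbols, of which 39 were found among the 19505 genes named on the array. Ifi44 was not analysed here. Where a symbol has several transcript clusters, the rule takes the one with the highest mean, but each of the 39 genes had a single cluster. The levels come from alveolar macrophages, phagocytes that live in the air spaces of the lung, in a mouse model of macrophage activation syndrome (MAS), a hyperinflammatory state with excessive macrophage activation.

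All mice were female C57BL/6J animals aged 6 weeks when they were bought, and all were injected 5 times within 10 days. The 4 control samples came from mice injected with PBS, the vehicle, and lavaged on day 10. The 3 acute samples came from mice injected with CpG 1826, a synthetic DNA ligand of Toll-like receptor 9, and also lavaged on day 10. The 4 resolution samples came from mice injected with CpG 1826 and lavaged on day 30. Cells from bronchoalveolar lavage were purified by adherence, total RNA was extracted, and each sample was read on 1 Affymetrix array, so the number of arrays limits the precision. The labels call the samples of a group biological replicates. No PBS group was lavaged on day 30, so in any comparison with the resolution group the recovery after CpG and the day of lavage cannot be told apart.

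Type I interferons bind the receptor of Ifnar1 and Ifnar2, whose kinases Jak1 and Tyk2 signal to the nucleus. The factor ISGF3, which contains Stat2 and Irf9, then binds the interferon-stimulated response element (ISRE) in the promoters of interferon-stimulated genes. The proteins made from these genes sense viral nucleic acid, degrade or edit RNA, block viral entry and translation, and feed back on the pathway; several respond to interferon-gamma as well.

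The promoter sequences are shown first, as a description of the list. The genes were listed as interferon-stimulated, so a high share of matches to the response element comes with that choice and is no result of these arrays. Windows of RefSeq promoters (mouse build GRCm38.p6, from 250 bases before to 50 bases after the annotated start) were found for 29 of the 39 genes, which have 36 windows between them. The letters GAAA, any 2 bases and GAAA, searched on both strands, occurred in 17 of these 29 genes (58.6%), against 3.99% of the 27025 genes that have a window. Counted by window, the letters occurred in 55.6% of the 36 windows and in 3.44% of all 32851 windows. The letters TTC, any 3 bases and GAA of the gamma-activated site (GAS), searched on both strands and free to overlap the first motif, occurred in 7 of the 29 genes (24.1%) and in 9.55% of all genes. A match describes the letters of the window and is no measurement of binding.

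The following stretches, written 5′ to 3′ on the strand of the gene with matches to the response element in capitals, belong to genes that the results turn on. The first pair, 30 bases each, covers positions -45 to -16 before the annotated starts of Mndal and Ifi211, neighbouring p200 genes whose differences from control went in opposite directions in the resolution group. For Mndal the stretch lies at chr1:173880203-173880232 and for Ifi211 at chr1:173913062-173913091, both on the minus strand.
Mndal: agagctgggGAAATCGAAAgctatgaacag
Ifi211: aagccaggGAAATTGAAAgctatgaacgaa
The matches begin at -36 and -37. RefSeq extends both genes upstream of these starts, so the stretches may lie within other transcripts. The longest run of bases shared by the 120 bases before both starts was gaaagctatgaac, 13 bases that overlap the match in both genes. The next 3 stretches are the 120 bases before the starts of Isg15 (chr4:156200819-156200938, minus strand), Ifit1 (chr19:34640769-34640888, plus strand) and Rsad2 (chr12:26456453-26456572, minus strand). They are shown because all 3 hold the element, while Ifit1 and Rsad2 were below the array background in every group and Isg15 was not.
Isg15: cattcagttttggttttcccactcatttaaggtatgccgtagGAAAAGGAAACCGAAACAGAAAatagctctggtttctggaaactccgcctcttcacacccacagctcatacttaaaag
Ifit1: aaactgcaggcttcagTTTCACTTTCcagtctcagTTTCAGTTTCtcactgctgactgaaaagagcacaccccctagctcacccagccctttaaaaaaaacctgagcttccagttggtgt
Rsad2: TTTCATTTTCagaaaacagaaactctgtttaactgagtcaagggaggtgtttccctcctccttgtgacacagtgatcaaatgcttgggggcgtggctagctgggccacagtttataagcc
Isg15 carries 3 overlapping matches, which begin at -78, -72 and -66. Ifit1 carries 2 matches on the opposite strand, at -104 and -85, and Rsad2 carries 1 at -120.

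**Figure D1:**
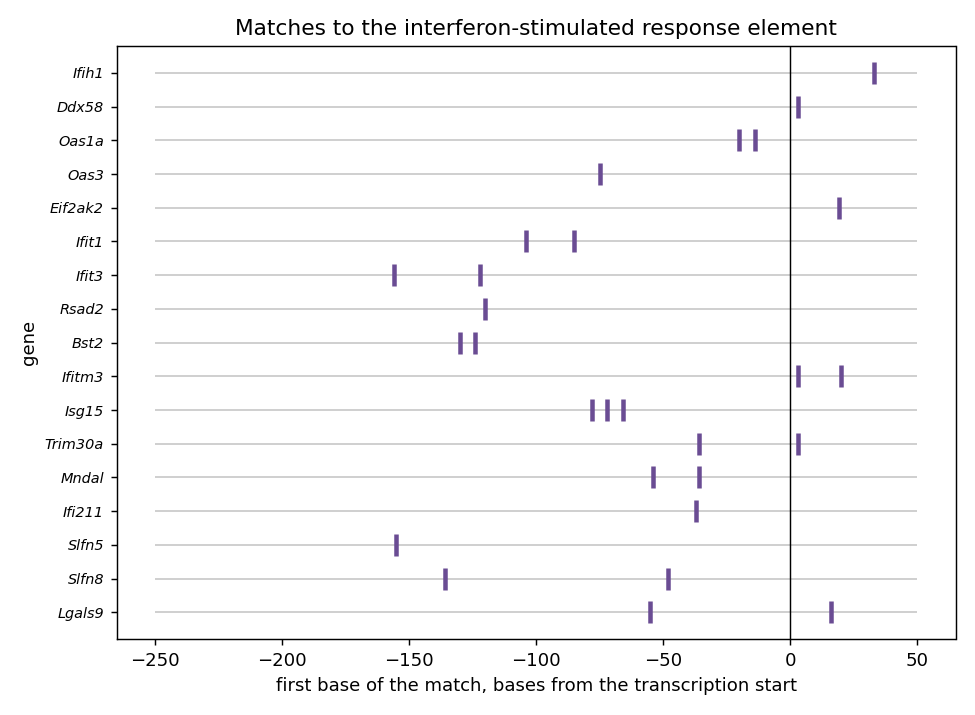
Position of each match to the letters of the response element, on either strand, for the 17 genes that have one, in bases from the annotated transcription start (x axis), with grey lines for the window searched and 1 gene in each row (y axis). Matches of Mndal, Slfn8 and Trim30a come from more than 1 annotated start, and the Slfn8 marks at -48 and -136 are counted from different starts. Most matches lie before the start; those of Ifih1, Ddx58, Ifitm3 and Eif2ak2 lie after it, as does 1 match each of Lgals9 and Trim30a.

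Levels are given as log2(intensity + 1). The median intensity of an array was 51.4 to 57, and the background, the 90th percentile of 23 probe sets that match no mouse sequence, was 6.12 to 6.24. Of the 39 genes, 20 (51.3%) were above background on all 11 arrays, 7 (17.9%) on some arrays and 12 (30.8%) on no array. Over all 19505 genes, 40.8% were above background on all arrays and 49.8% on none. The 12 genes below background on every array were Oas2, Oas3, Oasl1, Oasl2, Ifit1, Ifit2, Mx1, Mx2, Rsad2, Cmpk2, Usp18 and Parp9, so many of the classical antiviral effectors were not above background in any sample. Outside Rsad2 their readings lay between 3.49 and 5.96. The highest of all was Rsad2 (viperin, a radical SAM enzyme that blocks viral replication) at 6.09 on acute replicate 1, where its other 10 readings lay between 3.64 and 4.36 and that array's background was 6.17. After a filter that asks for at least 3 arrays above the 40th percentile of their array, 31 of the 39 genes were tested. The 8 left out were Oas2, Oas3, Oasl1, Oasl2, Ifit2, Mx1, Mx2 and Rsad2.

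The labelled cell type was checked against its markers: all 13 alveolar macrophage markers on the array were above background on all 11 arrays, and their mean level was 15.22 to 15.49 on every array. Single markers did change on day 30. In resolution versus control, 2 rose and 3 fell past an adjusted p of 0.05 in limma (38.5%, against 18.6% of all genes tested). Pparg (0.75) and Krt79 (0.62) rose, and Fabp4 (-1.20), Ctsk (-1.14) and Fabp5 (-0.80) fell (log2). In acute versus control 0 of the 13 passed. In bulk RNA, fewer cells of a type and less RNA per cell cannot be told apart. The mean over 17 lung epithelial markers of 18 listed was 7.11 to 7.46 in control, 7.98 to 8.38 in acute and 6.67 to 6.92 in resolution samples, with 5 of the 17 (Sftpb, Krt18, Muc5b, Lamp3 and Aldh3a1) below background on every array. The mean over 6 monocyte markers was 5.95 to 6.32, 6.63 to 7.27 and 5.87 to 6.17 in the same order, with Ly6c2 below background on every array. The mean over 5 T cell markers was 5.11 to 5.44, 5.45 to 6.11 and 4.94 to 5.07, with Cd3e, Cd3g and Cd8a below background throughout. The mean over 8 markers of natural killer and cytotoxic cells was 4.53 to 4.91, 5.23 to 5.42 and 4.56 to 4.65, with 6 of the 8 below background on every array. These marker lists had their highest means in the acute group, as did many of the interferon-stimulated genes, and their part in the results was not tested. Within the epithelial list, Epcam and Cdh1 went the other way, at -0.24 and -0.07 (log2) in acute minus control. The 7 plasmacytoid dendritic cell markers on the array, which include Bst2, spanned 7.42 to 7.71, 7.67 to 7.92 and 7.66 to 7.85, with Ccr9, Klk1 and Cox6a2 below background. All 5 B cell markers were below background on every array.

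**Figure D2:**
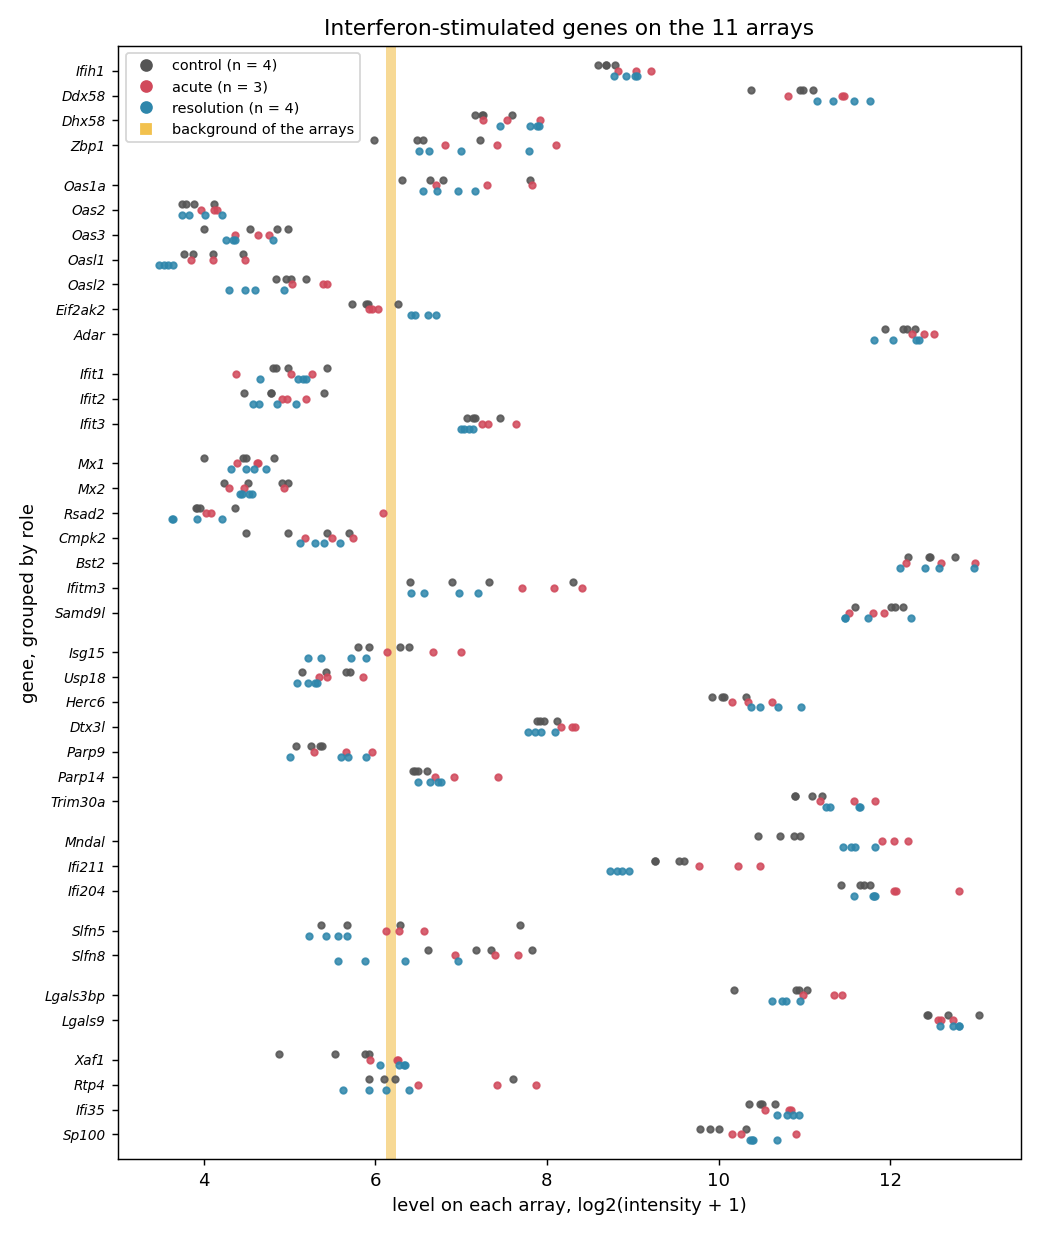
Level of each of the 39 genes on each of the 11 arrays (x axis, log2 of intensity + 1; 1 point is 1 array), with genes grouped by role (y axis) and the background of the arrays, 6.12 to 6.24, as a yellow band. The 12 genes listed in the text lie left of the band on every array, and the levels of different genes are not comparable because their probes differ.

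Acute versus control asks which of these genes differed at the end of the CpG course. Mndal rose 2.47-fold, and it was the only gene of the 31 tested to pass an adjusted p of 0.05 in limma (3.23%), against 0.239% of all 12146 genes tested, or 0.189% for rises. A further 27 of the 31 genes had differences above 0 without passing. The median difference over the 31 was 0.34 (log2), against -0.00 over all genes tested. By limma, 13 of the 31, all higher, had an unadjusted p under 0.05. Over all genes tested, 4.26% were higher at that level and 9.06% differed in either direction. The same shares stand beside the acute counts at this level for the groups of genes below. Because the filter can favour genes that are high in one group, the same values are given without it: over all 39 genes on the array, 34 (87.2%) stood above the control mean, against 52.5% of all 19505 genes, and the median difference was 0.29. Among the 20 genes above background on every array, 18 stood higher, with a median difference of 0.36, against 47% and -0.02 over the 7949 genes that met the same condition. All 3 acute arrays lay above all 4 control arrays for 7 of the 39 genes (17.9%), against 4.44% of all genes without the filter and 4.72% of the genes tested. The reverse separation was seen for 0 of the 39 genes, against 4.15% of all genes. The genes were chosen with earlier results of these data known, so these shares, and those of the later comparisons, describe the list only.

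The acute arrays were not alike in this respect. Over the 20 genes above background everywhere, the median difference from the control mean was 0.14 on acute replicate 1, 0.56 on acute replicate 2 and 0.35 on acute replicate 3. Acute replicate 2 was the highest array of its group for 14 of these 20 genes, against 35.3% of all genes above background everywhere, and the highest of all 11 arrays for 10. Among the controls, replicate 4 had the highest median at 0.14, equal at this rounding to acute replicate 1, and replicate 2 had the lowest at -0.15. Control replicate 2 was the lowest of all 11 arrays for 9 of the 20 genes. Without acute replicate 2, 24 of the 31 genes tested stood above control, with a median difference of 0.24, and Mndal still passed.

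**Figure D3:**
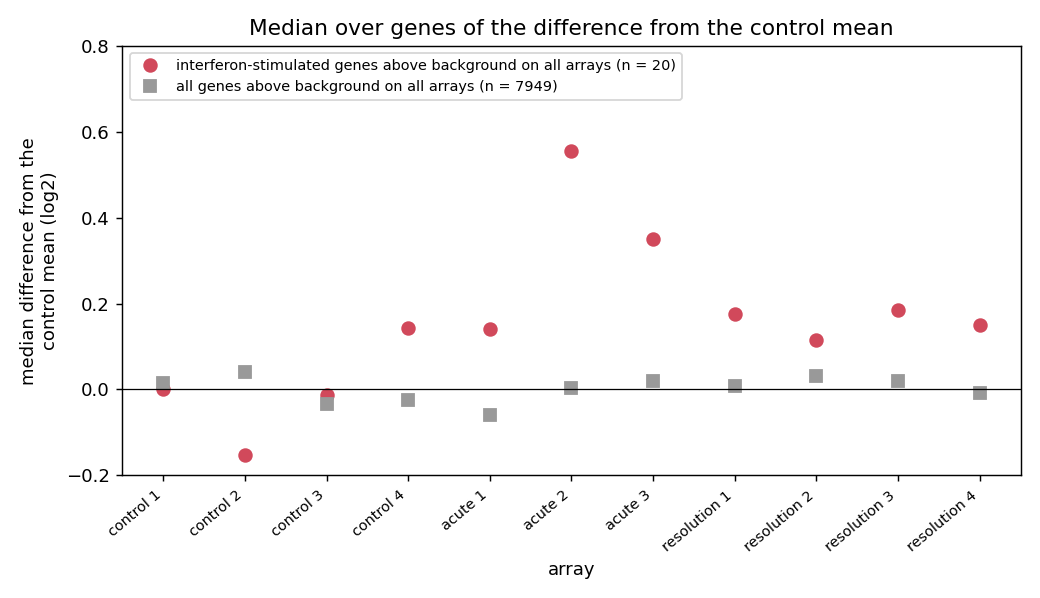
Median difference from the control mean (y axis, log2) on each array (x axis) over the 20 interferon-stimulated genes above background on all arrays (circles) and over all 7949 genes that met the same condition (squares). Acute replicates 2 and 3 stand highest at 0.56 and 0.35, acute replicate 1 and control replicate 4 both lie at 0.14, and the squares stay between -0.06 and 0.04.

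The p200 genes encode nuclear and cytosolic proteins that bind DNA or regulate the inflammasome, and in RefSeq Ifi204, Mndal and Ifi211 lie side by side on chromosome 1. For Mndal, which encodes a nuclear p200 protein, the control arrays read 10.71, 10.46, 10.95 and 10.88, the acute arrays 12.05, 12.21 and 11.91, and the resolution arrays 11.82, 11.45, 11.55 and 11.58. The 3 groups did not overlap, with control lowest and acute highest. The acute mean of 12.06 ± 0.15 (SD, n = 3) exceeded the control mean of 10.75 ± 0.22 (SD, n = 4) by 1.31 ± 0.15 (SE; adjusted p = 0.00372). The call held in every one of the 20 alternative settings tried, with an adjusted p of 0.00135 to 0.0348.

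For Ifi211, a p200 gene whose product has been linked to inflammasome control, the control arrays read 9.26, 9.53, 9.26 and 9.60 and the acute arrays 10.23, 10.49 and 9.77. All acute arrays lay above all control arrays, and the difference of 0.75 ± 0.17 (SE) did not pass (adjusted p = 0.116). Ifi204, which encodes a DNA sensor, read 11.77, 11.42, 11.70 and 11.65 in control and 12.07, 12.81 and 12.04 in acute samples. Its groups did not overlap either, and the difference of 0.67 ± 0.18 did not pass (adjusted p = 0.238). All 3 p200 genes of the list thus stood higher on every acute array than on every control array, against 4.72% of all genes tested. The genes were chosen with earlier results of these data known, so this count describes the list only. Of the other p200 genes of the same stretch of chromosome 1, Ifi207, Aim2 and Ifi209 differed by 0.05, 0.20 and 0.27, with adjusted p of 0.945, 0.67 and 0.805. Ifi208 differed by -0.10 (adjusted p = 0.909) and was below background on every array, as was Ifi213, which was not tested. The p200 genes resemble each other in sequence, and whether probes of one also read another was not tested.

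Among the 4 sensors, Ifih1 (MDA5), Ddx58 (RIG-I) and Dhx58 (LGP2) bind viral RNA and Zbp1 binds Z-form nucleic acid. None of them passed in limma, with 2 at an unadjusted p under 0.05. Ifih1 read 8.80, 8.60, 8.69 and 8.69 in control and 9.04, 9.22 and 8.83 in acute samples. These arrays did not overlap, and the difference was 0.34 ± 0.13 (adjusted p = 0.443). Zbp1 differed by 0.88 ± 0.36 (adjusted p = 0.493), and its acute arrays, at 6.82 to 8.11, overlapped the control arrays at 5.98 to 7.22.

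Of the ISG15 and ADP-ribosylation genes and ubiquitin ligases, all 7 stood above control and none passed in limma, with 4 at an unadjusted p under 0.05. Parp14, a mono-ADP-ribosyltransferase, read 6.50, 6.44, 6.60 and 6.46 in control and 7.43, 6.92 and 6.70 in acute samples, without overlap. Its difference was 0.52 ± 0.16 (adjusted p = 0.311). Dtx3l, a ubiquitin ligase that works with Parp9, also separated without overlap, at 0.29 ± 0.12 (adjusted p = 0.482). Isg15, the ubiquitin-like modifier, read 6.39, 5.80, 5.92 and 6.29 in control and 7.0, 6.67 and 6.14 in acute samples, with overlap, and differed by 0.50 ± 0.23 (adjusted p = 0.543). Usp18, which removes Isg15 from proteins and dampens receptor signalling, was below background in every group.

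The remaining groups held no call in acute versus control by limma. Of the 3 tested genes of the double-stranded RNA group (Oas1a, Eif2ak2 and Adar) 0 had an unadjusted p under 0.05, and of the 2 tested IFIT genes also 0. Ifit3, a partner of the cap-binding protein Ifit1, read 7.46, 7.07, 7.16 and 7.14 in control and 7.25, 7.64 and 7.31 in acute samples, which overlapped. Among the other direct effectors, Ifitm3, which blocks viral entry at endosomes, differed by 0.84 ± 0.36 (adjusted p = 0.512), while Bst2 (tetherin) and Samd9l differed by 0.12 and -0.20. Control replicate 4 read 8.30 for Ifitm3, above 2 of the 3 acute arrays. The same array was the highest control for Oas1a (7.80), Rtp4 (7.61) and Slfn5 (7.68), where the other controls reached 6.78, 6.23 and 6.29. It also had the highest mean over 7 neutrophil markers, 7.20, where the control arrays spanned 5.77 to 7.20, the acute arrays 6.06 to 6.08 and the resolution arrays 5.82 to 6.13, with Mmp9, Camp and Ngp below background on every array. The neutrophil gene S100a8 read 12.16 on control replicate 4 and 8.55 to 9.81 on the other controls. Among epithelial markers, Scgb3a1 read 9.71 on that array and 7.31 to 8.30 on the other controls, and Bpifa1 read 10.86 against 8.82 to 9.79. Scgb1a1 and Scgb3a2 were also highest there among the controls, while Sftpa1, Sftpc and Epcam were lowest there. The part of neutrophils or epithelial cells in the readings of that array was not tested. Without control replicate 4, 28 of the 31 genes tested stood above control, with a median difference of 0.41. Lgals3bp, a secreted galectin-binding glycoprotein, read 10.90, 10.94, 10.18 and 11.03 in control and 10.99, 11.34 and 11.43 in acute samples, and Lgals9 differed by -0.02. Xaf1, a partner of the apoptosis inhibitor XIAP, separated without overlap at 0.60 ± 0.22 (adjusted p = 0.431) but was above background on only 2 of 3 acute and 0 of 4 control arrays.

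**Figure D4:**
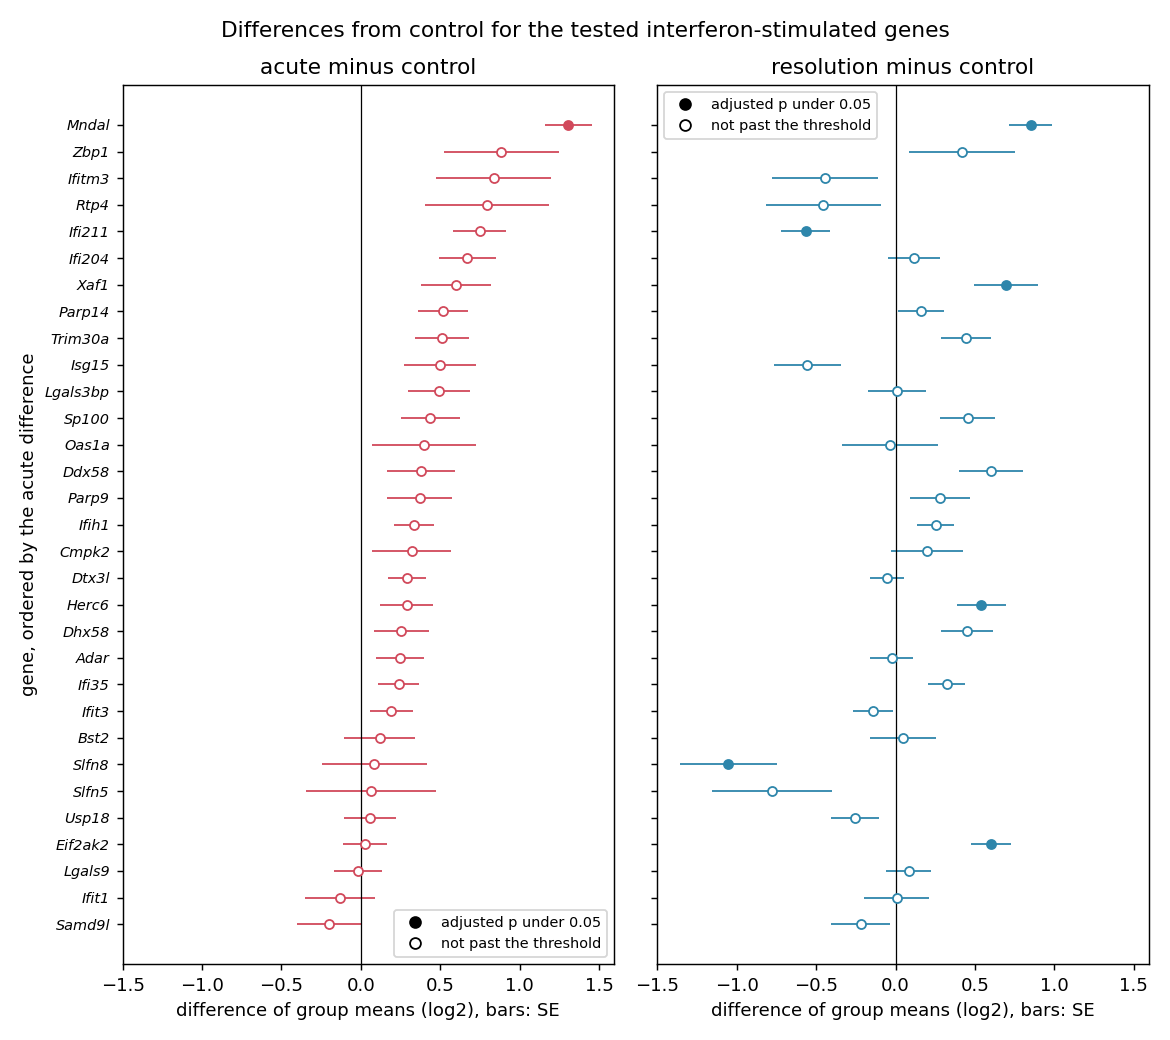
Difference of group means (x axis, log2; bars are SE) from control for the 31 tested genes (y axis, in order of the acute difference), on day 10 with CpG (left, n = 3 against 4) and on day 30 (right, n = 4 against 4). Filled circles passed an adjusted p of 0.05: Mndal on the left, and Mndal, Xaf1, Eif2ak2, Herc6, Ifi211 and Slfn8 on the right. Both panels use the same 4 control arrays.

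Resolution versus control asks which genes differed on day 30. Of the 31 genes tested, 4 rose (Mndal, Eif2ak2, Herc6 and Xaf1) and 2 fell (Ifi211 and Slfn8), or 19.4%, against 18.6% of all genes tested in either direction, 9.6% for rises and 9% for falls. The share called was thus close to the background share. The median difference was 0.08 over the 31 genes and 0.01 over all 39. Of all 39 genes, 21 (53.8%) stood above control, against 46.9% of all genes. This comparison and the previous one share the 4 control arrays. The number of calls was 3 without control replicate 1 and 3 without control replicate 2.

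Mndal was 0.85 ± 0.14 (SE) above control, or 1.80-fold (adjusted p = 0.000885), and its call held in all 20 alternatives (adjusted p of 0.000459 to 0.00414). Ifi211 read 8.73, 8.82, 8.88 and 8.96 in the resolution samples, all below the lowest control array. It fell by 0.57 on the log2 scale, a 1.48-fold decrease (SE 0.15; adjusted p = 0.0216). This call was lost without control replicate 2 (adjusted p = 0.0582), control replicate 4 (0.0571) or resolution replicate 1 (0.0561). Ifi204 read 11.80, 11.57, 11.82 and 11.81 in resolution samples and overlapped control, with a difference of 0.12 (adjusted p = 0.684). Next to them, Ifi207 was called at 0.64 above control (adjusted p = 0.00391), so the p200 genes measured on chromosome 1 included calls in both directions.

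Eif2ak2 (PKR), the kinase that stops translation when it binds double-stranded RNA, read 6.27, 5.91, 5.89 and 5.72 in control, 5.93, 6.03 and 5.96 in acute and 6.71, 6.61, 6.47 and 6.41 in resolution samples. All 4 resolution arrays lay above every other array and above background, which 1 of 4 control arrays and 0 of 3 acute arrays exceeded. The difference from control was 0.60 ± 0.13 (SE), or 1.52-fold (adjusted p = 0.00608). Herc6, the main ligase for Isg15 in the mouse, read 10.07, 9.92, 10.04 and 10.32 in control and 10.69, 10.96, 10.48 and 10.38 in resolution samples. The arrays did not overlap, and the difference was 0.54 ± 0.15, or 1.45-fold (adjusted p = 0.0273). The Herc6 call was lost without control replicate 1, 2 or 3 (adjusted p = 0.06, 0.0746 and 0.0628) or resolution replicate 1 or 2 (0.0626 and 0.0687).

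Xaf1 read 5.53, 4.88, 5.93 and 5.88 in control and 6.06, 6.28, 6.33 and 6.35 in resolution samples, without overlap, and was at least 1.07-fold higher, since no control array was above background. The fitted difference was 0.70 ± 0.20 (adjusted p = 0.0301), and the call was lost without control replicate 1 (adjusted p = 0.0641) or resolution replicate 2, 3 or 4 (0.063, 0.0715 and 0.0681). Slfn8, a Schlafen gene, read 7.35, 7.18, 6.61 and 7.83 in control and 6.96, 5.56, 6.34 and 5.88 in resolution samples, with 2 of 4 resolution arrays above background. The arrays overlapped, and the level fell by 1.05 on the log2 scale, a 2.08-fold decrease (SE 0.31; adjusted p = 0.0303). That call was lost without control replicate 1, 2 or 4 (adjusted p = 0.0684, 0.0559 and 0.0794) or resolution replicate 2, 3 or 4 (0.088, 0.051 and 0.0778).

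Slfn5, the other Schlafen gene of the list, was below background on all 4 resolution arrays and differed from control by -0.78 ± 0.38 (adjusted p = 0.182).

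The sensors passed in no comparison with control by limma, although 3 of the 4 had an unadjusted p under 0.05 on day 30, against 31.3% of all genes tested. Ddx58 read 10.99, 10.38, 11.10 and 10.95 in control, 10.81, 11.46 and 11.43 in acute and 11.58, 11.14, 11.76 and 11.34 in resolution samples. All resolution arrays lay above all control arrays, and the difference was 0.60 ± 0.20 (adjusted p = 0.0553). It passed in 5 of 20 alternatives, with an adjusted p of 0.0211 to 0.146 over all of them. Dhx58 differed by 0.45 ± 0.16 (adjusted p = 0.073), with resolution arrays at 7.46 to 7.91 and control arrays at 7.16 to 7.59, which overlapped. It passed in 3 of 20 alternatives, at 0.0212 to 0.168 over all of them. Trim30a, an interferon-induced TRIM protein, Ifi35 and Sp100, a nuclear body protein, also separated without overlap, at 0.44, 0.32 and 0.46 with adjusted p of 0.0692, 0.074 and 0.0878. In all, the 4 resolution arrays lay above the 4 control arrays for 8 of the 31 genes tested (25.8%), against 11.4% of all genes tested, and below them for 1, against 11.2%. Without the filter they lay above for 8 of the 39 genes (20.5%), against 7.67% of all genes, and below for 2 (5.13%), against 8.06%.

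Resolution versus acute asks which genes differed between the days of lavage after CpG. Eif2ak2 rose and Ifi211, Isg15, Ifitm3 and Slfn8 fell, 5 of 31 (16.1%), against 14.4% of all genes tested, 7.76% for rises and 6.69% for falls. Of the 39 genes, 9 stood above the acute mean (23.1%), against 44.6% of all genes, with a median difference of -0.24, against -0.03 over all genes. The 4 resolution arrays lay below the 3 acute arrays for 13 of the 39 genes (33.3%), against 10.7% of all genes without the filter. Among the 31 tested they lay below for 11 (35.5%), against 12.9%. Without acute replicate 2 the median over the 31 moved from -0.27 to -0.13 and the genes above 0 from 9 to 14. The number of calls was 3 without acute replicate 2, resolution replicate 2 or resolution replicate 4.

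Ifi211 fell by 1.31 on the log2 scale, a 2.49-fold decrease (SE 0.17; adjusted p = 0.00024), and the call held in all 20 alternatives, at 0.000157 to 0.00199. Isg15 read 5.36, 5.89, 5.21 and 5.72 in resolution samples, below background on all 4, whereas 2 of 3 acute arrays and 2 of 4 control arrays exceeded background. No resolution array reached the lowest acute array, and Isg15 was at least 1.33-fold lower than in acute samples. The fitted difference was -1.05 ± 0.23 (adjusted p = 0.00829), and it passed in the 19 alternatives in which Isg15 was tested, at 0.00469 to 0.0459. The stricter filter, at the 60th percentile, removed the gene. Against control, Isg15 differed by -0.56 ± 0.21 (adjusted p = 0.0869).

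Ifitm3 read 6.90, 6.40, 7.33 and 8.30 in control, 8.41, 8.08 and 7.71 in acute and 6.57, 6.97, 7.20 and 6.41 in resolution samples. The resolution arrays all lay below the acute arrays and within the span of the controls. The level fell by 1.28 on the log2 scale between acute and resolution, a 2.43-fold decrease (SE 0.36; adjusted p = 0.0332). The call was lost without acute replicate 1 or 2 (adjusted p = 0.13 and 0.0828) or resolution replicate 1, 2 or 4 (0.0737, 0.0507 and 0.0802). Ifitm3 is also made by epithelial and other cells. The epithelial marker mean was 7.98 to 8.38 in acute and 6.67 to 6.92 in resolution samples. Of 13 tested epithelial markers, 7 were called lower by limma in resolution than in acute samples (53.8%), against 6.69% of all genes tested. Epcam and Cdh1, the 2 that stood higher, differed by 0.51 and 0.45 without passing. The part of epithelial cells in the Ifitm3 result was not tested.

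Slfn8 was 1.14 lower in resolution than in acute samples (fitted difference -1.14 ± 0.33, a 2.20-fold decrease; adjusted p = 0.0377), where the acute arrays read 6.93, 7.39 and 7.66 and overlapped the highest resolution array. The call was lost without control replicate 1 (adjusted p = 0.05), acute replicate 2 or 3 (0.0978 and 0.131) or resolution replicate 2, 3 or 4 (0.0864, 0.061 and 0.0886). Eif2ak2 was at least 1.29-fold higher in resolution than in acute samples, with a fitted difference of 0.58 ± 0.14 (adjusted p = 0.0152). It no longer passed without acute replicate 1 (adjusted p = 0.0586) or 3 (0.0502). Mndal, Ifi204 and Rtp4, a receptor transporter protein, lay just outside the threshold, at -0.45, -0.56 and -1.25 with adjusted p of 0.0572, 0.0566 and 0.051, and the resolution arrays of each lay below all acute arrays.

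**Figure D5:**
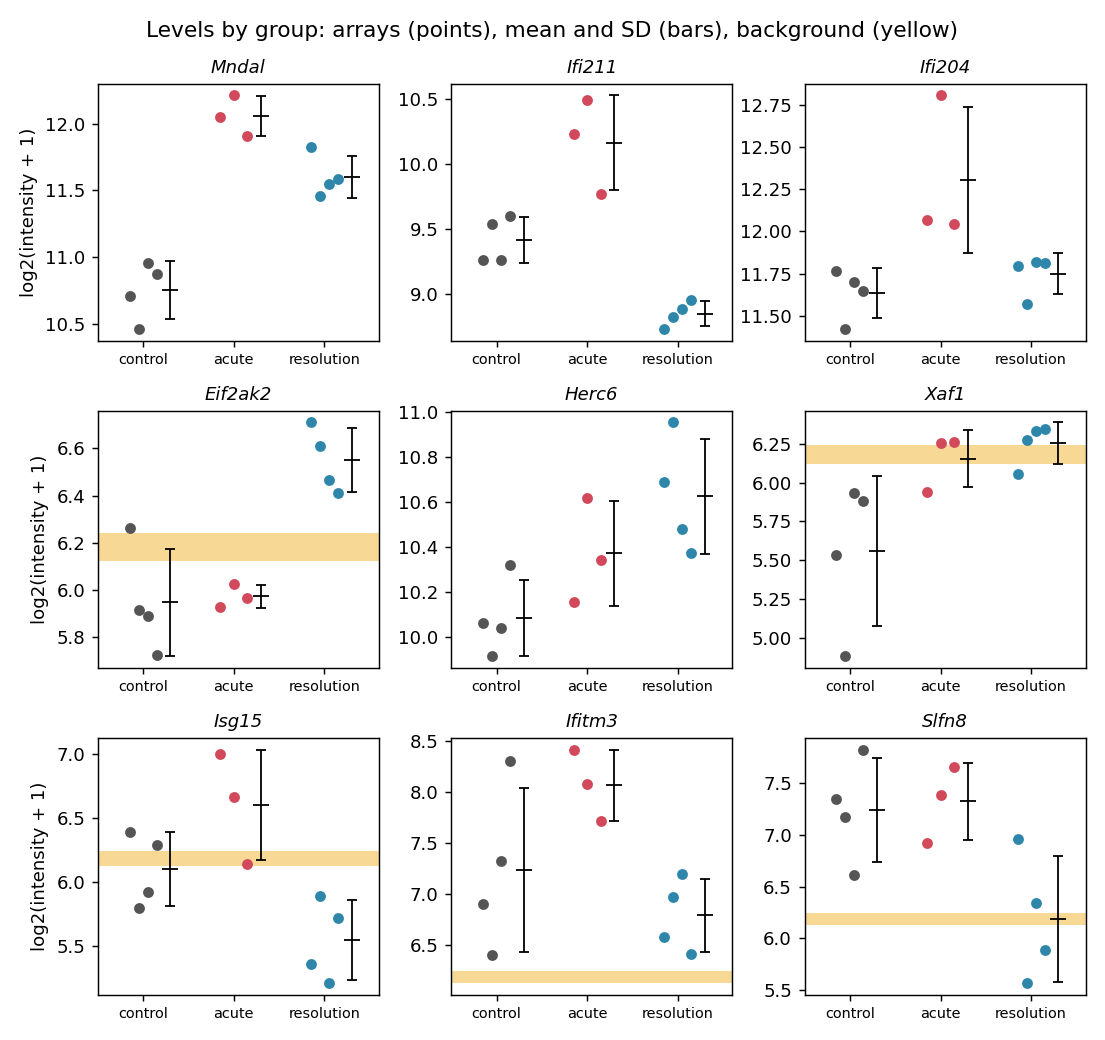
Level on each array (points), mean and SD (bars) of 9 genes by group (x axis; control n = 4, acute n = 3, resolution n = 4) on the scale log2(intensity + 1) (y axis, which does not start at 0 and differs between panels), with the background of the arrays in yellow. Mndal is above control in both CpG groups, Ifi211 is highest in acute and lowest in resolution samples, Eif2ak2 is highest in resolution samples, and Isg15, Xaf1 and Eif2ak2 lie close to the background.

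The group with the highest mean differed from gene to gene. Of the 20 genes above background everywhere, 13 had their highest mean in the acute group, 6 in the resolution group and 1 in the control group, against 24.7%, 43.4% and 32% of all genes above background everywhere. Adar, the RNA editing enzyme, had means of 12.14, 12.39 and 12.12 in control, acute and resolution samples, and Lgals3bp had means of 10.76, 11.25 and 10.77. Herc6 stood at 10.09, 10.37 and 10.63, and Ddx58 at 10.85, 11.23 and 11.46. Lgals9, a galectin that modulates T cells and macrophages, varied little, with means of 12.65, 12.63 and 12.73. For Adar, Lgals3bp and Lgals9 no comparison passed, and the control and resolution arrays of each overlapped.

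Upstream of this list lie the interferons, their receptor and the genes that induce them. Of 15 type I interferon genes on the array 6 were tested, 0 passed in any comparison by limma. An unadjusted p under 0.05 was reached by 0 of them in either comparison with control and by 1 in resolution versus acute. Ifnb1 was below background on all 11 arrays. Of 6 receptor and signalling genes tested, 0 passed in acute versus control by limma, with 1 at an unadjusted p under 0.05. Ifnar2, Jak1, Tyk2 and Stat2 passed in no comparison. Ifnar1, a receptor chain, fell by 0.65 on the log2 scale in resolution versus control (adjusted p = 0.00781). Irf9, the DNA-binding subunit of ISGF3, read 6.76, 6.81, 6.68 and 6.88 in control, 7.33, 7.78 and 7.40 in acute and 6.78, 6.52, 6.61 and 6.79 in resolution samples. The acute arrays lay above all others, with a difference of 0.72 ± 0.14 from control (adjusted p = 0.0524) and of -0.83 ± 0.14 for resolution minus acute (adjusted p = 0.00149).

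Of the 12 tested genes that induce interferon, 0 passed in acute versus control by limma, with 2 at an unadjusted p under 0.05. In resolution versus control 3 rose, namely the RNA receptor Tlr3 (1.71), the adaptor Sting1 (1.23) and the adaptor Mavs (0.73), and 3 fell, namely the adaptor Ticam1 (-0.87), the kinase Tbk1 (-0.75) and the factor Irf5 (-0.44). That is 50% of the 12, against 18.6% of all genes. In resolution versus acute 4 of the 12 rose and 3 fell, or 58.3% against 14.4%. This list and those below were chosen with earlier results of these data known, so such shares describe the lists only. Irf3 did not pass, and Irf7, Tlr9, which is the receptor of CpG DNA, and the inhibitor Socs1 were below background on all 11 arrays. Of 59 further interferon-stimulated genes tested, 46 (78%) stood above control in the acute group, against 49.9% of all genes tested, and 1, the peptide transporter Tap1, passed (1.09 ± 0.14; adjusted p = 0.00809). In resolution versus control 10 of the 59 rose and 9 fell, or 32.2% against the 18.6% of all genes. The largest rises were Trim25 (1.33), Gvin1 (1.33), Tent5a (1.18) and Sp110 (1.06), and the largest falls were Nampt (-2.58), Tor3a (-2.11), Cd274 (-0.998) and Lgals8 (-0.82). In resolution versus acute 5 of the 59 rose and 9 fell by limma, or 23.7% against 14.4% of all genes. The rises included Ifi207 (0.59, adjusted p = 0.013). The largest falls were Nampt (-2.34), Tor3a (-1.78), Irgm1 (-1.16), Cd274 (-1.15), Mov10 (-1.12) and Ogfr (-1.01). Of 3 tested negative regulators, Nlrx1 (0.79) and Ptpn6 (0.50) rose in resolution versus control, and 0 passed in acute versus control by limma, with 1 at an unadjusted p under 0.05.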

How the data were processed

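RNA of alveolar macrophages was measured on 11 arrays. The authors deposited linear intensities made with Affymetrix Expression Console, per the submitters' processing notes; for its version and algorithm the sources used here give nothing. The deposited intensities were used as log2(value + 1) without further scaling. Of 28846 probe sets, 19572 had 1 gene symbol (array annotation), 0 several and 9243 none; 31 were array controls. Group means of the 11 arrays were compared in a single fit with limma 3.58.1 (R 4.3.3), with Benjamini-Hochberg adjustment over 12146 genes and a two-sided threshold of 0.05. Errors of means are SD and of differences SE. A fold is "at least" where no array of the lower group exceeded background; it uses the higher of background and level there. Per-array values are printed for genes past the threshold and, in groups of genes with none, for the gene with the smallest p, with others added after their values were seen. The genes and lists were chosen with earlier results of these data known. Alternatives were another pseudocount, filters, scalings, array weights, a replicate block, a mean over clusters, fits of 2 groups and leaving out each array. The procedure was tested on simulated data.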

Additional observations from a re-analysis of the deposited data

Results flagged for a closer look

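In 4 of 78 groups of 4 arrays, 1 array stood apart from the other 3 of its group by Dixon's criterion, which chance gives in about 1 in 20 groups. Rsad2 read 4.36 on control replicate 1 and 3.91 to 3.96 on the other controls, all below background. Ifi204 read 11.57 on resolution replicate 2 and 11.80 to 11.82 on the others. Lgals3bp read 10.18 on control replicate 3 and 10.90 to 11.03 on the others. Sp100 read 10.68 on resolution replicate 1 and 10.37 to 10.41 on the others.

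For 5 genes the CpG samples of day 30 differed from those of day 10, in the test of resolution against acute samples; recovery and day of lavage cannot be told apart. The difference was 0.58 for Eif2ak2 (adjusted p = 0.0152), -1.28 for Ifitm3 (adjusted p = 0.0332), -1.05 for Isg15 (adjusted p = 0.00829), -1.31 for Ifi211 (adjusted p = 0.00024) and -1.14 for Slfn8 (adjusted p = 0.0377). Ifi211 was called below control on day 30 and stood above control, short of the threshold, on day 10.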

How the results depend on the processing

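Over at most 20 alternatives for each result (the stricter filter removed dim genes), 0 of 12 called results for single genes changed sign, and 23 of the 81 that were not called did so in at least 1. In acute versus control, the count over all genes (29) was 54 with array weights, 16 with only the 2 groups fitted, and 6 to 29 when each array was left out (6 without acute replicate 2, 10 without acute replicate 3 and 13 without control replicate 1, 18 without control replicate 2), while the count among interferon-stimulated genes was 1 throughout. In resolution versus control, the count of interferon-stimulated genes (6) was 10 with array weights and 3 to 8 when each array was left out. In resolution versus acute, the count over all genes (1755) was 1069, without acute replicate 1, to 1837 when each array was left out and 2071 with array weights, and the count of interferon-stimulated genes (5) was 8 with a pseudocount of 16 and 3 to 7 when each array was left out. For these counts the cause was not tested. Scaling the arrays to a common median or by quantiles left 27 of 31 genes above control in the acute group.

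Deviations from the group mean correlated at -0.124 to 0.087 for arrays with the same replicate number, against -0.14 to 0.2 for different numbers. No pairing by number was seen, and with 3 or 4 arrays in a group these values cannot exclude it. With a replicate block, the count over all genes was 25 in acute versus control, 2120 in resolution versus control and 1455 in resolution versus acute. Among interferon-stimulated genes it was 1, 5 and 4 in the same order; Slfn8 was the gene lost (adjusted p = 0.0558 and 0.0682).

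Signal over background limits the account: 12 of the 39 genes were below background on every array, and differences near background understate changes.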

Other observations

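Among the further interferon-stimulated genes, Ube2l6, the conjugating enzyme of the Isg15 system, read 12.21 on acute replicate 1 and 7.79 to 8.84 on the other arrays. Isg20, an RNA exonuclease, read 11.21 on the same array and 6.80 to 7.59 on the others. Both genes were singled out after their values were seen, and neither passed in acute versus control (adjusted p = 0.347 and 0.599). The red cell gene Alas2, the 1 of 5 listed red cell markers on the array, read 15.15 on acute replicate 1. Its lowest acute reading was 6.99, against 5.72 to 6.70 on the control and 5.54 to 7.25 on the resolution arrays. All acute arrays thus lay above all control arrays, with a difference of 4.36 that did not pass. The part of red cells in these readings was not tested. Rsad2 also had its highest reading, 6.09, on acute replicate 1.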
